A study of Mus musculus with 8 samples.

Results

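The hypoxia response genes described here are 10 genes of the pathway by which cells sense oxygen: Hif1a, Epas1, Egln1, Egln2, Egln3, Vhl, Vegfa, Bnip3, Adm and Ndrg1. They were chosen by symbol, matched through the RefSeq accession that the arrays give for each probe, and all 10 were present, with 17 probes among them. They stand among 32524 genes and transcripts represented by 39429 probes. RNA came from the neocortical wall of ICR mouse embryos at embryonic day 16, manually separated into V/SVZ (the ventricular zone with the subventricular zone), where progenitors divide, and CP (the cortical plate), where neurons settle after their last division. For each tissue, 4 samples were hybridised to 4 arrays with 1 dye, and the labels name no treatment or genetic change in either tissue. Whether those 4 samples represent different embryos or litters is not stated, so p-values measure only the spread between them, which may be technical. Slide 1 carried the V/SVZ samples and slide 2 the CP samples, so slide and tissue cannot be told apart.

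Hif1a and Epas1 encode the oxygen-regulated alpha subunits of the hypoxia-inducible factors (HIF), which pair with a constant partner of the Arnt family and activate genes for glycolysis, vessel growth and survival. When oxygen is plentiful, the prolyl hydroxylases encoded by Egln1, Egln2 and Egln3 mark the alpha subunits, and the product of Vhl recruits a ubiquitin ligase that has them degraded. This control acts on the proteins, so the RNA levels given here do not report HIF activity. Vegfa, Bnip3, Adm, Ndrg1 and Egln3 are known targets of the factors in many cell types. In the embryonic cortex, vessels grow into the wall while neurogenesis is under way.

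A level is given as the processed signal of a probe divided by the 75th percentile of the signal on the same array, and a difference is the mean log2 level in V/SVZ minus that in CP. Levels of different probes are not compared, since each probe has its own efficiency. A probe was called where limma, fitted over 23858 tested probes, gave an adjusted p under 0.05. The array set separated the tissues as labelled: all 12 progenitor markers tested were higher in V/SVZ, among them Pax6, Sox2 and Eomes, and all 12 markers of cortical plate neurons were higher in CP, among them Tbr1 and Bcl11b. Between 58.4% and 62.9% of probes were well above background on an array, and 15 of the 17 probes of the hypoxia response genes were so on all 8 arrays. In samples of whole tissue, fewer cells of a type and less RNA per cell cannot be told apart.

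The 10 genes divided into 2 with very large differences and 8 with small or no difference. Egln3 was higher in V/SVZ, by at least 72.1-fold by its brighter probe and 39.2-fold by the other under the bounds described below. The size of the Egln3 difference depends on how the background is handled. Ndrg1 was 26.0-fold higher in CP. Hif1a and Adm were slightly higher in V/SVZ, Egln1, Egln2 and Bnip3 slightly higher in CP, and Vegfa and Vhl were not called, while the probes of Epas1 did not give one answer. Of the 17 probes, 4 were called towards V/SVZ and 8 towards CP. Over all tested probes, 35.3% were called towards V/SVZ and 44.4% towards CP, or 79.7% in all, so that 12 of 17 called is close to the background. By the brightest probe of each gene, 7 of the 10 genes were called, against 79.5% of all genes. The V/SVZ arrays were all above the CP arrays for 4 probes and all below them for 8, against 33.8% and 41.7% of all tested probes. The median absolute difference of the 17 probes was 0.30 on the log2 scale, against 0.55 for all tested probes. At 2-fold or more, 3 of the 17 probes were called, against a background of 30.2%, and these 3 also passed 8-fold, against 6.69%. They were the 2 Egln3 probes towards V/SVZ (background 3.59%) and the Ndrg1 probe towards CP (background 3.09%). Both Egln3 probes entered the test only through V/SVZ, where they are high, so no excess over the background is read from these counts.

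For 8 of the 10 genes, RefSeq (GRCm38.p6) gave the sequence upstream of 10 annotated starts, and 250 bases before each start were searched for the core of the hypoxia response element, the short site to which the factors bind. The windows of 3 genes that were called are shown because they lie before genes called in opposite directions: Egln3 and Adm, higher in V/SVZ, and Bnip3, higher in CP. Capitals mark matches to the core, ACGTG or GCGTG, read on either strand, so that CACGT and CACGC are matches on the opposite strand, and matches may overlap. The Egln3 window lies at chr12:54203875-54204124 on the minus strand, the Adm window at chr7:110627407-110627656 on the plus strand, and the Bnip3 window at chr7:138909507-138909756 on the minus strand.
Egln3: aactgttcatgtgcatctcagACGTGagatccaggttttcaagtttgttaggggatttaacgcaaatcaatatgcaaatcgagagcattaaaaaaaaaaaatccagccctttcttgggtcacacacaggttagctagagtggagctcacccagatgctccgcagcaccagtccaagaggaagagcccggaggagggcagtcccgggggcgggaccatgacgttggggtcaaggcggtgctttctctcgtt
Adm: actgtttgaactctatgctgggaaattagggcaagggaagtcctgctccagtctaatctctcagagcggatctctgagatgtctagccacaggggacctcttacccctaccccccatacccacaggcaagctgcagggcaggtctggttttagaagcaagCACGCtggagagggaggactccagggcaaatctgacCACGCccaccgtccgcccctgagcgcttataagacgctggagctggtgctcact
Bnip3: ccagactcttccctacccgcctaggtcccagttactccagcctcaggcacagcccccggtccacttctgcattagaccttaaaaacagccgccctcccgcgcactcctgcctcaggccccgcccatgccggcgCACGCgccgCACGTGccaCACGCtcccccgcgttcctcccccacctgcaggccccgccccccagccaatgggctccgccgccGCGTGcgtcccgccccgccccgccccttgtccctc

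The Bnip3 window held 5 matches, the Adm window 2 and the Egln3 window 1. The Bnip3 matches include the palindrome CACGTG, which counts on both strands, and a cluster between 117 and 99 bases before the start. Egln2 held 4 matches before its first start and 1 before its second, and Vegfa 0 before its first start and 2 before its second. On the minus strand, the second window of each of these genes lies downstream of its first start. For Vegfa these windows are chr17:46025164-46025413 and chr17:46032378-46032627, and for Egln2 chr7:27165729-27165978 and chr7:27166803-27167052, the second listed before the first. Hif1a held 3 matches, Egln1 2 and Vhl 0. Among all 32841 windows of the same length, 38.6% held at least 1 match, 16.6% the ACGTG form and 28.2% the GCGTG form, and 6.58% held 3 or more matches. The cores contain a CG dinucleotide, and the windows differ in these: 51 in Egln1, 24 in Bnip3, 20 before the first Egln2 start, 20 in Vhl, 10 in Egln3 and 7 in Adm, against a median of 6 over all windows. Windows with a match lay before genes called higher in V/SVZ and before genes called higher in CP. A match to 5 letters is a description of the sequence and not a binding site.

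**Figure D1:**
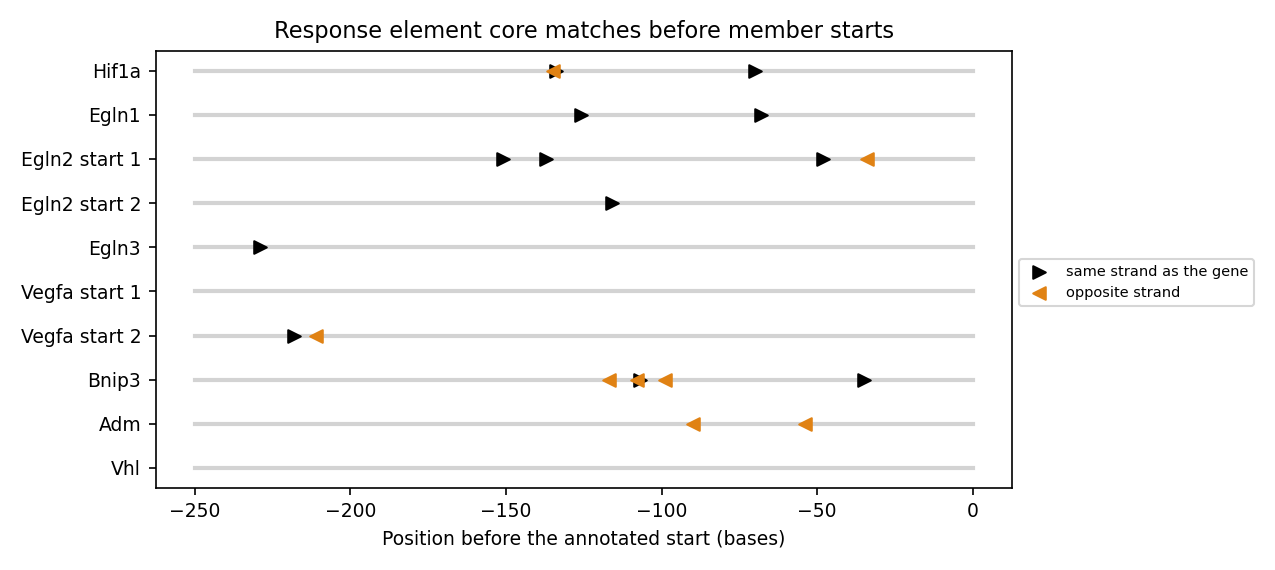
Matches to the response element core (triangles) in the 250 bases before each annotated start of 8 hypoxia response genes, by distance from the start in bases. Black triangles are on the strand of the gene and orange ones on the opposite strand. Bnip3 has 5 matches, 4 of them within 117 to 99 bases of the start, and Vhl and the first Vegfa start have 0.

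The alpha subunit genes were present in both tissues. Hif1a had levels of 1.93, 1.73, 1.65 and 1.77 on the 4 V/SVZ arrays and of 1.54, 1.41, 1.46 and 1.51 on the 4 CP arrays. Every V/SVZ array was above every CP array. The difference was 0.25 ± 0.05 SE on the log2 scale, or 1.19-fold (95% interval 1.09 to 1.30), with a limma adjusted p = 0.00296. It was positive in each of the 19 alternatives run, between 0.21 and 0.46.

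Epas1, whose product is the alpha subunit prominent in vessels and glia, had 3 probes annotated to the same accession. The brightest had levels of 2.11, 2.26, 2.30 and 2.23 in V/SVZ and 1.98, 2.06, 1.997 and 2.25 in CP, and the tissues overlapped. Its difference was 0.10 ± 0.05 SE (95% interval -0.02 to 0.22) with a limma adjusted p = 0.100. This probe was called higher in V/SVZ without array CP 4 (0.14, adjusted p = 0.0225 by limma). The second Epas1 probe had levels of 1.91, 1.83, 1.82 and 1.94 in V/SVZ and of 2.36, 2.33, 2.52 and 2.46 in CP. Here every CP array was above every V/SVZ array, and the difference of -0.37 ± 0.04 SE, 1.29-fold higher in CP, was called at a limma adjusted p = 5.74e-05. The third probe was dim, with levels from 0.046 to 0.069 in V/SVZ and from 0.047 to 0.064 in CP, and was not called (0.13 ± 0.14 SE, limma adjusted p = 0.404).

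The first and second Epas1 probes were set against each other within each array. The brightest minus the second was 0.25 ± 0.09 (SD, n = 4) in V/SVZ and -0.22 ± 0.09 (SD, n = 4) in CP, with no overlap. The tissues differed by 0.47 in this value, with a two-sided exact permutation p = 0.0286, the smallest that 70 splits of 8 arrays can give, and an adjusted p = 0.0743 over the 13 pairs compared. These splits treat the arrays as free to change places, although arrays of equal number tended to deviate together, least clearly those of number 3. Swaps within the 4 numbers could give no p below 0.125. A direction for Epas1 therefore cannot be given from these probes, and the mean of its 3 probes was -0.04 ± 0.06 SE (limma adjusted p = 0.535). Hif1a minus Epas1, by the brightest probes, differed by 0.15 between the tissues (exact permutation p = 0.143, adjusted p = 0.169).

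The 3 hydroxylase genes behaved differently. Egln3 encodes the hydroxylase that is itself induced by HIF in many cells. Its first probe gave intensities of 3477, 3275, 3530 and 3634 units in V/SVZ and of 32, 27, 28 and 22 units in CP. Its second probe gave 1890, 1816, 1885 and 1976 units in V/SVZ and 19, 8, 10 and 9 units in CP. Both probes were well above background on all 4 V/SVZ arrays and on 0 of the 4 CP arrays. The lowest signals that counted as well above background on the CP arrays were 36.6 to 45.1 units.

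The CP signals are only bounds. By the processed signal, Egln3 was at least 72.1-fold higher in V/SVZ by the first probe and at least 39.2-fold by the second. These bounds set the V/SVZ mean against the mean of, per CP array, the higher of the probe's own level and the lowest level well above background. Both probes entered the test only through V/SVZ, and a probe that passes through the tissue where it is high had to differ. The fit gave limma adjusted p of 5.61e-10 and 2.55e-08, with differences of 6.80 and 7.25 that use CP signals not well above background and are not measured sizes. With normexp background correction they were 4.85 and 4.32, below the logarithms of these bounds, 6.17 and 5.29. The size therefore rests on how the background is handled. The direction and the call held in all 18 alternatives run for each probe. Since these probes had to differ, that is not a test of the direction or the call. The setting that required every array to be well above background left both probes out.

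**Figure D2:**
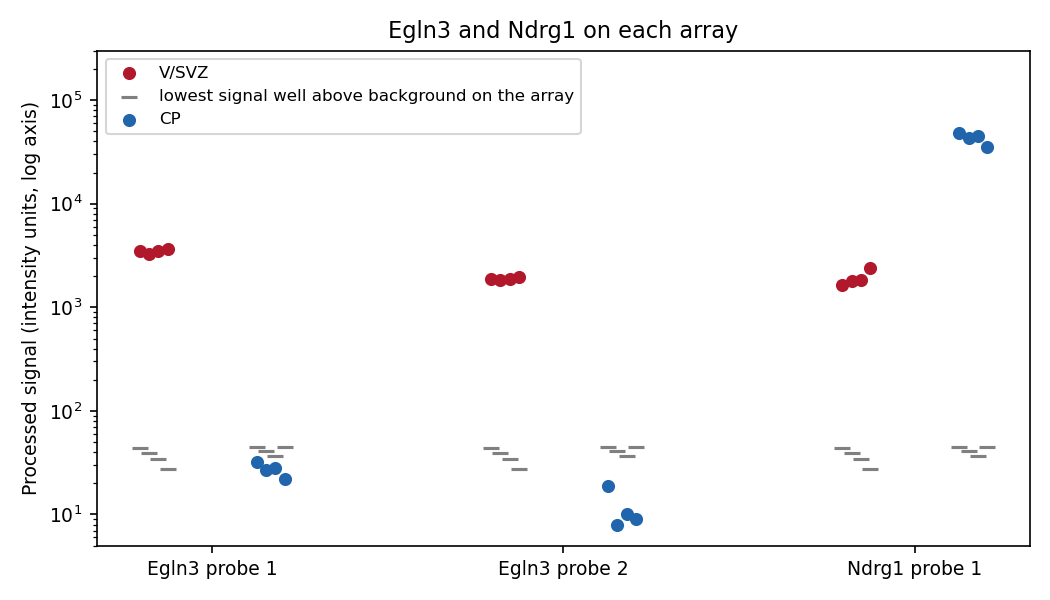
Processed signal in intensity units (log axis) of the 2 Egln3 probes and the Ndrg1 probe on each of the 4 V/SVZ (red) and 4 CP (blue) arrays, with the lowest signal well above background on each array as a grey dash. Egln3 lies at 1816 to 3634 units in V/SVZ and below the dashes in CP, and Ndrg1 lies at 1628 to 2373 units in V/SVZ and 35245 to 47874 units in CP.

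Egln1, the main hydroxylase acting on HIF in most tissues, had levels of 0.313, 0.293, 0.308 and 0.358 in V/SVZ and of 0.435, 0.390, 0.424 and 0.398 in CP. All CP arrays were above all V/SVZ arrays. The difference was -0.37 ± 0.07 SE, 1.30-fold higher in CP (95% interval 1.16 to 1.45), with a limma adjusted p = 0.00125. Without any scaling between arrays it was -0.17 and no longer called (limma adjusted p = 0.0812).

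Egln2 had 2 probes. The brighter one had levels of 20.4, 20.5, 19.4 and 20.6 in V/SVZ and of 22.6, 23.0, 22.6 and 23.1 in CP, and the other 3.14, 3.44, 3.30 and 3.82 in V/SVZ and 4.06, 4.09, 4.08 and 4.04 in CP. In both, the CP arrays were all above the V/SVZ arrays, by 1.13-fold (-0.17 ± 0.03 SE, limma adjusted p = 0.00145) and 1.19-fold (-0.25 ± 0.06 SE, limma adjusted p = 0.00470). These differences are of the size that the scaling moves: with the median of the array they were -0.09 and -0.16 and neither was called, and with no scaling 0.03 and -0.04. Before scaling, the Egln2 intensities overlapped between the tissues.

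Egln3 was also paired with Egln1 and Egln2, but no size is given for these pairs, since its CP side is only a bound. Within arrays, Egln1 minus Egln2 differed by -0.20 (exact permutation p = 0.0857, adjusted p = 0.139). Of the 13 pairs, 5 reached the smallest p that the splits allow, and their adjusted p of 0.0743 is then fixed by that number, so the test says nothing of how large these differences are.

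Vhl, which encodes the substrate-binding subunit of the ligase, had levels of 5.70, 5.88, 5.55 and 5.96 in V/SVZ and of 6.19, 5.97, 5.69 and 5.86 in CP. The tissues overlapped, and the difference was -0.04 ± 0.04 SE (limma adjusted p = 0.414). Its 95% interval, -0.13 to 0.06, allows at most 1.096-fold higher in CP. With no scaling the value was 0.17 (limma adjusted p = 0.0248).

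**Figure D3:**
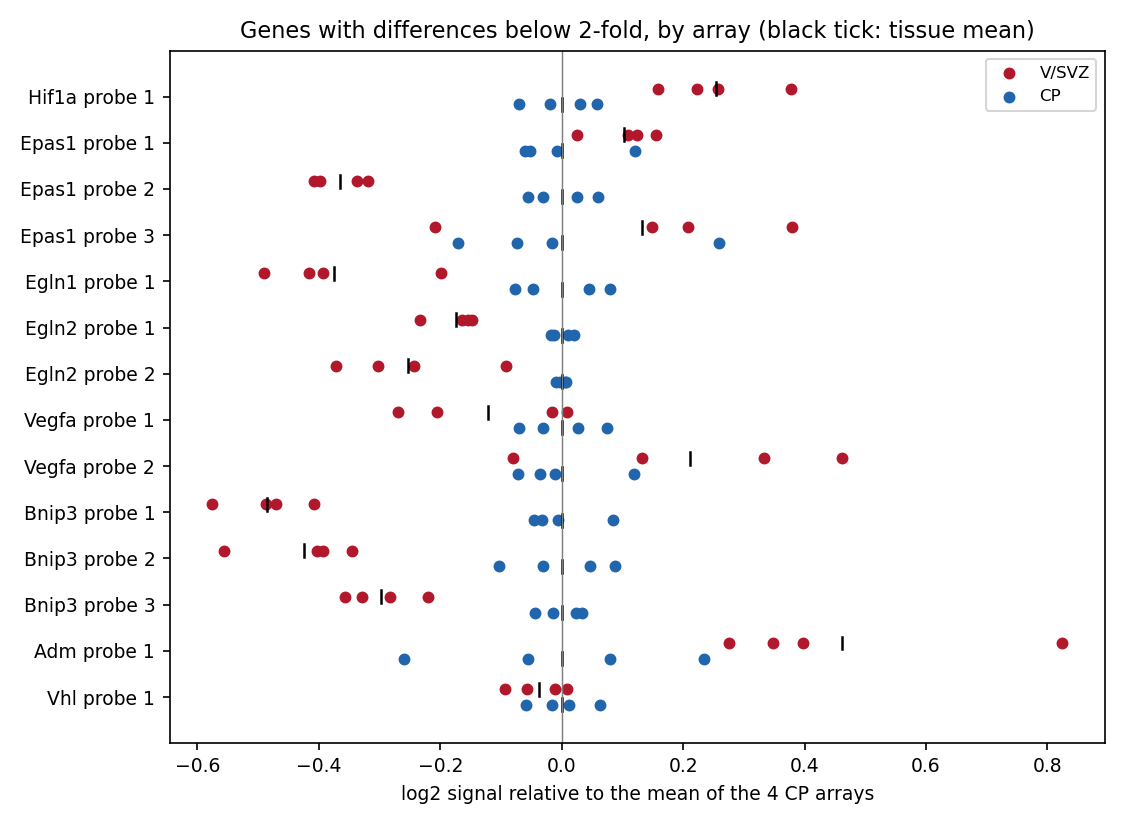
Level of each probe of the 8 hypoxia response genes other than Egln3 and Ndrg1 on each array, as log2 signal relative to the mean of the 4 CP arrays, with V/SVZ arrays in red, CP arrays in blue and the mean of each tissue as a black tick. Hif1a and Adm lie higher in V/SVZ and Egln1, Egln2 and Bnip3 higher in CP on every array, and the 3 Epas1 probes differ in direction.

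Among the targets, Ndrg1 had the largest difference towards CP. It encodes a protein of the N-myc downstream regulated family linked to differentiation and to myelin, and its single probe had levels of 0.674, 0.704, 0.712 and 0.949 in V/SVZ and of 21.1, 19.9, 20.7 and 16.7 in CP. All CP arrays were far above all V/SVZ arrays. The difference was -4.70 ± 0.12 SE, 26.0-fold higher in CP (95% interval 21.2 to 31.7), at a limma adjusted p = 9.61e-09. It ranged from -4.81 to -4.49 over all alternatives run. The genes whose values over the 8 arrays were most like Ndrg1, by Euclidean distance between centred log2 levels among 13795 genes with a symbol, were P2rx2 (0.31), Eef1a2 (0.37) and Rtn4rl1 (0.37). With 2 tissues this likeness mainly reflects the size of the tissue difference.

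The paralogs of Ndrg1 did not share one direction. Ndrg2 was 4.51-fold higher in V/SVZ, whereas Ndrg3 was 2.66-fold and Ndrg4 4.58-fold higher in CP, each well above background on all 8 arrays and called by limma. Ndrg2 is known from glial cells and Ndrg4 from neurons.

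Bnip3, which encodes a mitochondrial protein that promotes mitophagy, was higher in CP by all 3 of its probes. The brightest had levels of 5.56, 5.17, 5.80 and 5.49 in V/SVZ and of 8.16, 7.66, 7.45 and 7.53 in CP. The second ranged from 4.20 to 4.86 in V/SVZ and from 5.75 to 6.56 in CP, and the third from 0.067 to 0.074 in V/SVZ and from 0.084 to 0.088 in CP. No probe overlapped between the tissues. The differences were -0.49 ± 0.05 SE, -0.42 ± 0.06 SE and -0.30 ± 0.04 SE, or 1.40-fold, 1.34-fold and 1.23-fold, and the largest limma adjusted p was 0.000292. With no scaling the third probe was at -0.09 and not called (limma adjusted p = 0.179).

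Of the relatives of Bnip3, Bnip3l, which acts in mitophagy too, went the other way, 1.24-fold higher in V/SVZ, with its 4 probes between 0.19 and 0.40. Bnip1 was 1.29-fold higher in CP. Bnip2 was called at 0.11 by its brightest probe (limma adjusted p = 0.0305), but was at -0.17 with the mean of its 2 probes. Without V/SVZ 1, V/SVZ 2, CP 3 or CP 4 its call was lost (limma adjusted p up to 0.0835). No probe of Bnipl was tested.

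Adm, the gene of the vasodilator peptide adrenomedullin, had levels of 0.167, 0.153, 0.161 and 0.224 in V/SVZ and of 0.134, 0.106, 0.122 and 0.149 in CP. The V/SVZ arrays were all above the CP arrays, though the lowest of them was close to the highest of CP. The difference was 0.46 ± 0.15 SE, 1.38-fold (95% interval 1.09 to 1.74), with a limma adjusted p = 0.0189. The call held in all 18 alternatives run, with a highest adjusted p of 0.0480 when an array was left out. The genes most like Adm were the haemoglobin gene Hbb-bs (distance 0.27), Hyou1 (0.31) and Cnpy2 (0.31). Here too the likeness mainly reflects the size of the tissue difference, which was 0.51, 0.44 and 0.50 in these genes.

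Markers of red blood cells moved the same way as Adm. Of 8 erythroid genes tested, 7 were called higher in V/SVZ, against 35.0% of all genes, with a median difference of 0.50. The summed level of 10 such genes was 320.5 to 377 in V/SVZ and 263 to 281 in CP. The brightest, Hba-a2, had a difference of 0.25, and the haemoglobin genes are near-identical copies whose probes may read each other's RNA. Their part in the Adm result was not tested.

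Vegfa, which encodes the main growth factor for vessels, was not called by either of its 2 probes, which are annotated to different RefSeq transcripts. The first had levels of 1.60, 1.38, 1.57 and 1.31 in V/SVZ and of 1.67, 1.62, 1.55 and 1.51 in CP, and the second 0.162, 0.111, 0.129 and 0.148 in V/SVZ and 0.128, 0.112, 0.117 and 0.115 in CP. The tissues overlapped in both. The differences had opposite signs, -0.12 ± 0.07 SE (95% interval -0.29 to 0.05, limma adjusted p = 0.159) and 0.21 ± 0.11 SE (-0.05 to 0.48, limma adjusted p = 0.122). Within arrays the first probe minus the second differed by -0.33 between the tissues (exact permutation p = 0.0286, adjusted p = 0.0743). The second probe was called higher in V/SVZ without array V/SVZ 2, the lowest of its tissue (0.31, limma adjusted p = 0.0152).

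The small differences of these genes lie close to what the scaling between arrays can shift. The plot of differences by scaling shows each probe under 6 settings. Over all tested probes, 8410 were called towards V/SVZ and 10598 towards CP, against 10930 and 7683 with no scaling. Leaving out all scaling moved the median of all genes by 0.21, because the 75th percentile was 2416 to 2566 units on the V/SVZ arrays and 2113 to 2264 units on the CP arrays. Hif1a, Adm and the first 2 Bnip3 probes kept their direction and their call under every scaling, and so did the second Epas1 probe, whereas Egln1, the Egln2 probes and the third Bnip3 probe lost the call under no scaling, and the Egln2 probes also under median scaling. Scaling by spike-in RNAs gave nearly the same values as the 75th percentile, with a shift of 0.01 in the median of all genes.

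**Figure D4:**
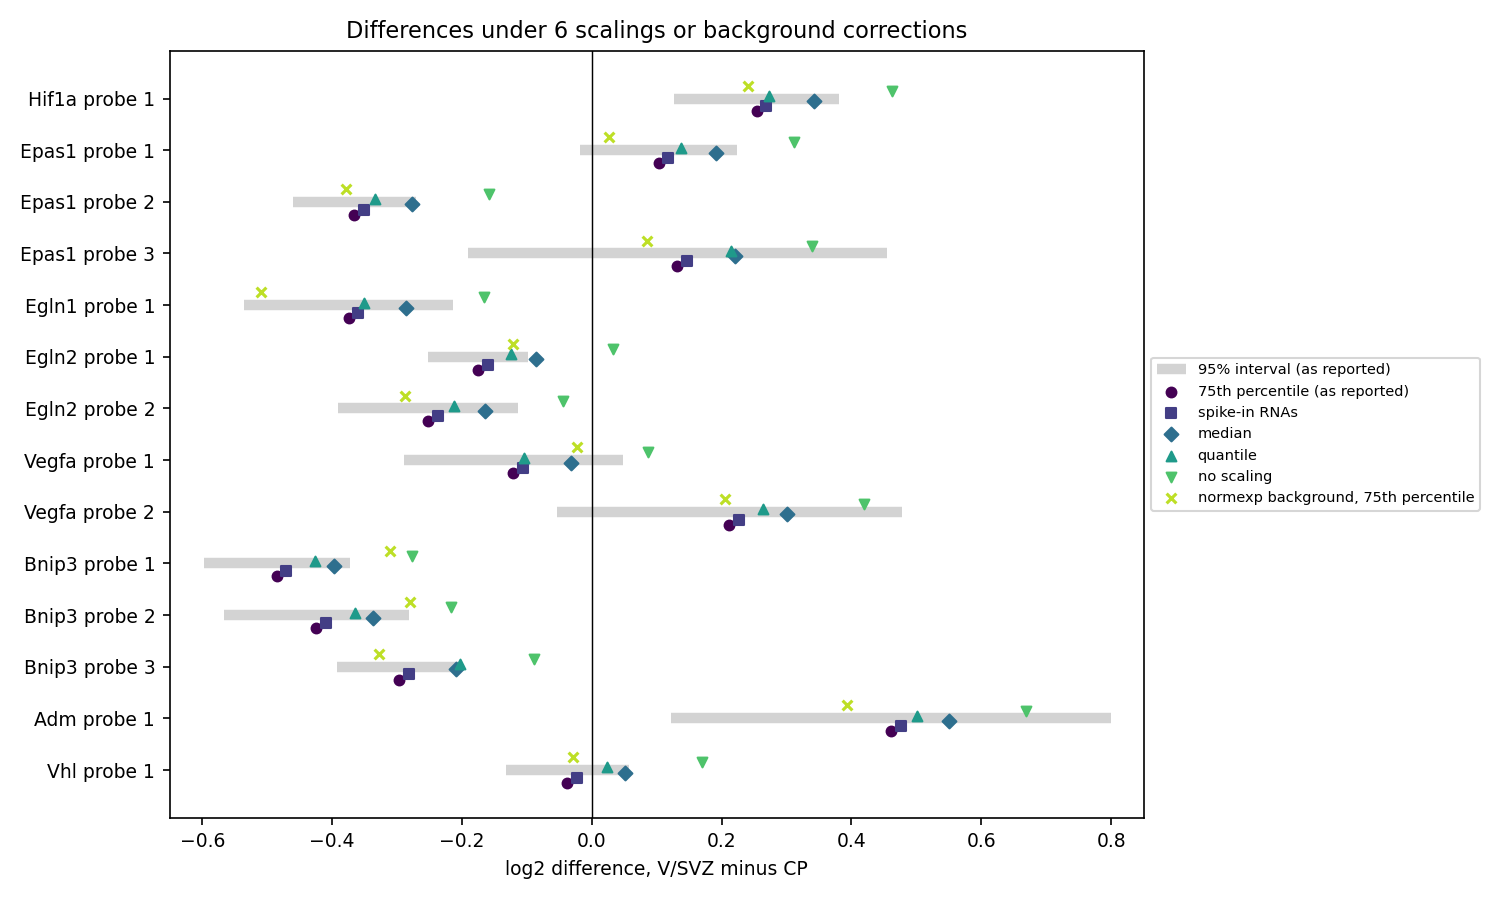
Log2 difference, V/SVZ minus CP, of each probe of the 8 genes other than Egln3 and Ndrg1 under 6 scalings or background corrections (symbols), with the 95% interval of the reported value in grey. Hif1a and Adm stay above 0 and Bnip3 below 0 under all 6, while the first Egln2 probe moves from -0.17 to 0.03 without scaling.

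The wider pathway was described from lists of further genes, using the brightest tested probe of each. Over all 19230 genes so represented, 35.0% were called towards V/SVZ and 44.6% towards CP, with a median difference of -0.09. Among 15 partners and regulators of HIF, V/SVZ had the higher level for 6 and CP for 8, with a median of -0.33. The largest difference was that of Cited2, which competes with HIF for its coactivators and is also a HIF target, 2.43-fold higher in V/SVZ. Ube2d1, a ubiquitin-conjugating enzyme, was 1.97-fold and Siah2, a ligase that acts on the hydroxylases, 1.91-fold higher in CP.

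Other genes of this list are named for their role, with their values in view. Siah1a (-0.77), Ep300 (-0.33), Crebbp (-0.33) and Os9 (-0.33) were each called higher in CP. Crebbp was close to the threshold (limma adjusted p = 0.0465) and was at -0.07 with normexp. With no scaling between arrays, 5 genes of this list were called higher in CP. The dimerization partner Arnt was 1.82-fold higher in V/SVZ and its paralog Arnt2, prominent in neurons, 1.46-fold higher in CP. Hif1an, the asparaginyl hydroxylase that restrains HIF, was 1.19-fold higher in V/SVZ. In the ligase that holds the Vhl product, the scaffold Cul2 was 1.56-fold higher in CP by its brightest probe and lower in V/SVZ by all 4 of its probes, and Elob was not called (-0.04). The probes of Rbx1, Eloc and Hif3a disagreed in sign, ranging from -0.64 to 0.70, from -0.33 to 0.18 and from -0.16 to 0.68. All of these are among the 6 genes called towards V/SVZ by the brightest probe. By the mean of the probes, Rbx1 was called (0.24), and Eloc (-0.08) and Hif3a (0.26) were not.

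Of 25 genes listed as HIF targets of glucose uptake, glycolysis and linked steps, 17 were called towards V/SVZ and 7 towards CP. The linked steps include glycogen synthesis and lactate transport, and the listing of each gene as a target was not tested here. The median was 0.38, and 1 gene, Gapdh, was not called by its brightest probe (0.09). The 7 Gapdh probes ran from 0.09 to 0.49, and their mean of 0.38 was called (limma adjusted p = 0.000227). Aldoc, a brain aldolase, stood apart with a difference of 7.32 ± 0.08 SE, the glycogen branching enzyme gene Gbe1 was 4.88-fold higher in V/SVZ, and the phosphofructokinase gene Pfkp was 11.8-fold higher in CP. Aldoc is known as a marker of radial glia and astrocytes as well. The Pfkp value depends on the probe, since the other probe gave -0.73.

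Several genes with the same role were called in opposite directions, in pairs singled out after their values were seen. The glucose transporter Slc2a1 was 1.97-fold higher in V/SVZ and Slc2a3, the neuronal transporter, 3.75-fold higher in CP. Hexokinase Hk2 was 3.94-fold higher in V/SVZ and Hk1 3.32-fold higher in CP. The lactate transporter Slc16a3 was 4.02-fold higher in V/SVZ, while Slc16a1 was 1.59-fold higher in CP. The regulators Pfkfb3 and Pfkfb4 did not split in this way and were both higher in CP, 2.37-fold and 2.12-fold. For the other genes from aldolase to lactate dehydrogenase, the differences were 0.28 for Aldoa, 0.74 for Tpi1, 0.87 for Pgk1 and 0.30 for Pgam1. They were 0.76 for Eno1, 0.77 for Pkm and 0.19 for Ldha. Each of these was called, whereas Gapdh was called by the mean of its probes and not by the brightest.

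Of 36 other HIF targets, 30 were tested, 16 of them called towards V/SVZ and 11 towards CP, with a median of 0.23. Stc1 and Stc2, both among the 16, entered the test only through V/SVZ, with 0 and 1 CP arrays well above background. Plod2, a collagen lysyl hydroxylase, was 3.98-fold and Bhlhe40, a transcriptional repressor, 3.10-fold higher in V/SVZ, and Igfbp3, a binding protein for insulin-like growth factors, was 24.4-fold higher in CP. Ddit4, an inhibitor of mTOR signalling, was 2.70-fold and Angptl4 2.48-fold higher in V/SVZ, both chosen after their values were seen. Ankrd37, Insig2 and Rora were not called (0.08, -0.07 and 0.04). Of the list, 6 genes, Car9, Lox, Mxi1, Epo, Bhlhe41 and Edn1, were not well above background on all 4 arrays of either tissue and were not tested.

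**Figure D5:**
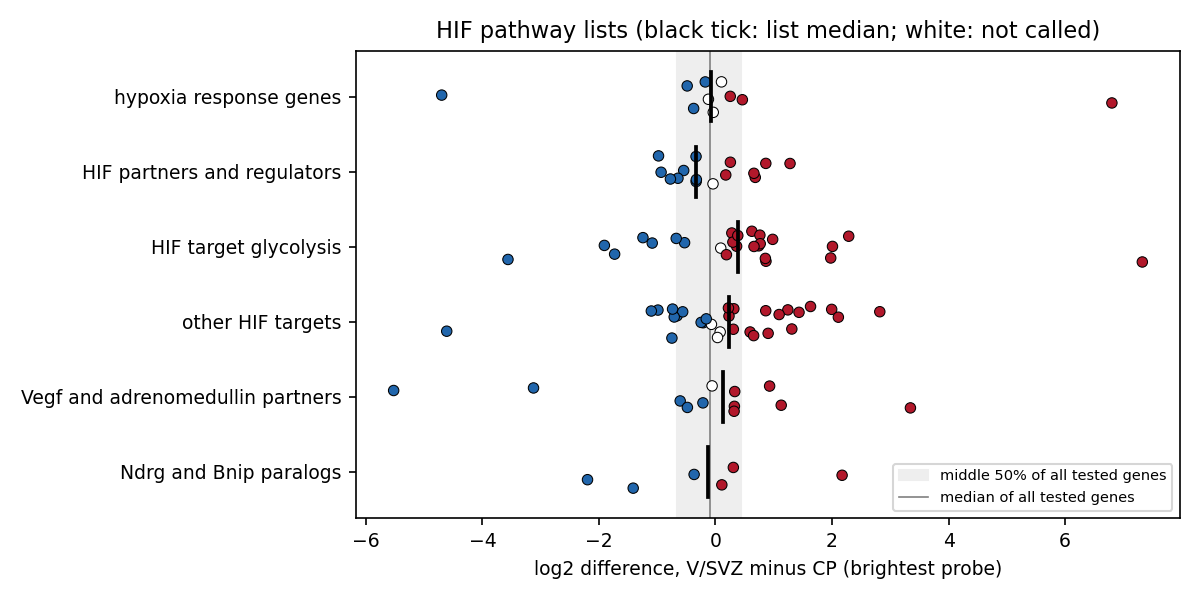
Log2 difference, V/SVZ minus CP, of each tested gene (brightest probe) in the hypoxia response genes and 5 lists of related genes. Red points were called higher in V/SVZ, blue points higher in CP and white points were not called. Black ticks are list medians, and the grey band holds the middle 50% of all 19230 genes. The list medians run from -0.33 to 0.38, and Egln3 and Ndrg1 lie far outside the band, Egln3 with CP signals that were not well above background.

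Among the growth factors and receptors through which Vegfa and Adm act, 12 of 14 genes were tested, 6 of them called towards V/SVZ and 5 towards CP. Ramp3, which with Calcrl forms an adrenomedullin receptor, was 46.0-fold higher in CP (-5.52 ± 0.11 SE, limma adjusted p = 2.57e-09), while no array had Calcrl well above background. Ramp2, the other partner of Calcrl for adrenomedullin, was at -0.21. Nrp2, a neuropilin that binds growth factors of the Vegf family and semaphorins, was 10.2-fold and Vegfc 2.19-fold higher in V/SVZ. The other growth factors of this list are given with their values in view. Vegfd was 8.71-fold higher in CP, well above background on 4 CP and 3 V/SVZ arrays. Vegfb (0.33) and Pgf (0.32) were called higher in V/SVZ. Of the receptors for Vegfa, Kdr was at 0.32 by its brightest probe and -0.06 by the other, Flt1 was not called (-0.06), and Nrp1 was 1.90-fold higher in V/SVZ.

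Cells of vessels and other non-neural cells are present in both tissues, and their markers were set beside these values. Of 14 endothelial genes tested, 4 were higher in V/SVZ, 3 higher in CP and 7 not called, with a median of 0.03, and the summed level of 15 genes was 12.6 to 13.7 in V/SVZ and 10.5 to 11.6 in CP. Slco1c1, singled out after its value was seen, was 8.05-fold higher in V/SVZ and had the largest difference of this list (3.01). Egfl7, the brightest, was at -0.12, and Flt4 was well above background on only 1 V/SVZ array and 0 CP arrays and was not tested. Of 8 pericyte genes, 4 were higher in V/SVZ and 4 not called, with a median of 0.19, and their summed level was 5.42 to 5.91 in V/SVZ and 2.43 to 2.92 in CP, to which Notch3, a receptor that progenitors express as well, contributed the largest difference (3.19). Of 12 microglia genes, 10 were higher in V/SVZ, with a median of 2.01 and summed levels of 18.4 to 24.0 in V/SVZ and 14.4 to 16.6 in CP, and Itgam, the brightest, was at -0.81 by one probe and 0.21 by the other. Of 7 meningeal genes, 2 were higher in V/SVZ and 2 in CP, with summed levels of 1.05 to 1.45 in V/SVZ and 0.777 to 0.945 in CP, and Col1a2, the brightest, was at 1.04. The choroid plexus genes Ttr, Kl and Clic6 were above background on none of the arrays, the summed level of 6 such genes was 0.102 to 0.122 in V/SVZ and 0.094 to 0.120 in CP, and of 2 tested, Aqp1 was at 1.12 and Folr1 at -0.64. The part of these cells in the differences of the hypoxia response genes was not tested.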

How the data were processed

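RNA of 8 samples was labelled with Cy3 after a low-input amplification, as the labels' protocols state. Agilent Feature Extraction 10.7.1.1 made the deposited intensity values, per the file headers. These are the processed signal of each spot, corrected by the scanner software for background and spatial trends but not scaled between arrays, and, for an alternative, the median pixel signal of the spot and of its surroundings. The array design names build mm9.

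Spots of a probe were averaged as log2 after removing spots marked as outliers (142 to 258 per array), and the 75th percentile of each array was subtracted. No gene spot was saturated. A probe was tested where 1 tissue or both had it well above background on 4 of 4 arrays and each tissue kept 3 or more values, which left 23858 of 39429. Unversioned accessions were matched to a RefSeq table (GRCm38.p6), which named 26761 probes, and coordinates on mm9 were not used. The 2 tissues were compared in limma 3.58.1 under R 4.3.3 (lmFit, eBayes), and p-values were adjusted by Benjamini-Hochberg over probes, or over 19230 genes for lists. Pairs of probes were compared by exact permutation. The procedure was tested on simulated data.

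The genes and lists were chosen with earlier results of these data known. Named genes were all 10 hypoxia response genes and, from each list, the 3 called genes with the largest differences among those measured above background throughout, the called gene furthest against the majority, and every tested gene of a list of under 8. From lists of other cell types the brightest gene was named, along with Pax6, Sox2, Eomes, Tbr1 and Bcl11b, and for 2 genes the 3 genes most like them. Any other name was picked with its value in view.

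A further file of log2 values by the authors covers 17163 gene probes, in which 99.8% of rows have a median of 0 (tolerance 1e-05) and column medians run from -0.03 to 0.02. All 8 columns correlated with the array of equal number from the opposite tissue (r across probes 0.9996 to 0.9998) and opposed their own array (-0.95 to -0.94). Since the tissue markers follow the scanner files, the table was only an alternative, with all signs turned. Its log base and direction were inferred, and its filter and scaling are not given in the sources used here.

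Same-numbered samples tended to deviate together from their tissue means: the correlations across probes were 0.34, 0.31, 0.12 and 0.21 for numbers 1 to 4. The highest correlations with a sample of another number were -0.06, 0.04, 0.17 and 0.16, so number 3 was not closest to its own number. The numbers come from the titles and are also the positions on the slide, so the source of these correlations is not known. The number of arrays limits the precision.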

Additional observations from a re-analysis of the deposited data

Results flagged for a closer look

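Among 34 groups of 4 values (17 probes in 2 tissues), 2 held a value far from the other 3, and chance alone marks about 1 group in 20. Array V/SVZ 4 had an Ndrg1 level of -0.076 on the log2 scale, above the -0.57 to -0.49 of the other V/SVZ arrays, and the difference without it was -4.81. Array CP 1 had a level of -6.90 for the second Egln3 probe, above the -8.02 to -7.83 of the other CP arrays, and none of these 4 values was well above background.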

How the results depend on the processing

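With no scaling between arrays the small differences moved towards V/SVZ. Epas1 probe 1 was then 0.31 and probe 3 0.34, both called, Vegfa probe 2 was 0.42 and called, Vegfa probe 1 0.087, Vhl 0.17 and Egln2 probe 1 0.033, the last 3 with their sign turned, and Egln1 (-0.17), Egln2 probe 2 (-0.044) and Bnip3 probe 3 (-0.089) lost their call. The counts of hypoxia response probes became 8 towards V/SVZ and 4 towards CP, and 5 HIF partners and regulators were higher in CP. Under median scaling Epas1 probe 1 was called at 0.19, the Egln2 probes were at -0.086 and -0.16 and not called, and Vhl was at 0.050, and under quantile normalization Epas1 probe 1 was called at 0.14 and Vhl was at 0.024. Requiring all 8 arrays well above background left 2 probes towards V/SVZ, since both Egln3 probes drop out. With normexp the within-array differences were turned for Egln3 probe 1 minus 2 (0.53) and for Bnip3 probes 1 and 2 minus 3 (0.016 and 0.047). Averaging probes turned Bnip2 (-0.17), Epas1 (-0.044) and Vegfa (0.046). In the deposited table, which lists fewer genes, 7 other HIF targets and 2 Vegf and adrenomedullin partners were higher in CP.

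Leaving out 1 array gave 0.083 to 0.14 for Epas1 probe 1 and 0.13 to 0.31 for Vegfa probe 2. The replicate block left 4 and 8 probes called, with Hif1a at 0.25 (limma adjusted p = 0.00328), and changed no call among the 17 probes. Beyond the fewer genes or probes tested under the stricter filter and the deposited table, the cause of these changes was not tested. The CP signals of Egln3 were not well above background and give only bounds.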
